A study of Mus musculus with 7 samples.

Results

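The interleukin-6 family of cytokines and receptors was followed in 7 messenger RNA sequencing libraries of tumours grown from B16F10, a line of pigmented melanoma cells from the mouse. The 10 members were taken by their symbol from the 21878 genes of the count table. They comprised 5 ligands (Il6, Il11, Lif, Osm and Clcf1) and 5 receptor chains (Il6ra, Il6st, Il11ra1, Lifr and Osmr). The Zelnorm group held 4 libraries (MBZ_9, MBZ_11, MBZ_13 and MBZ_15) of tumours from mice given Zelnorm at 1.25 mg/kg by mouth every other day. The control group, NC, held 3 libraries (NC_5, NC_6 and NC_10), and the labels describe no vehicle for it. All grafts grew in female C57BL/6J mice that were randomized once tumours could be felt, and no age or genotype beyond the strain is given. Zelnorm is sold to act on a serotonin receptor of the gut, and its active compound is tegaserod. Every tumour came from the same cell line, so the design covers a single tumour model. The labels pair the letters MBZ with Zelnorm without spelling them out, and the counts hold no check of the drug. The series title asks about regulation of the tumour immune microenvironment, to which the cytokines of this family and their receptors belong.

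Cytokines of this family signal through gp130, the shared chain encoded by Il6st. Interleukin-6 and interleukin-11 first bind their own alpha chains (Il6ra and Il11ra1) and then recruit gp130. Leukaemia inhibitory factor (Lif) pairs gp130 with Lifr, mouse oncostatin M (Osm) pairs it mainly with Osmr, and cardiotrophin-like cytokine (Clcf1) acts on Cntfr, Lifr and gp130. The receptors activate Janus kinases and STAT3, and STAT3 induces Socs3, which feeds back on gp130. Myeloid cells are known sources of oncostatin M and interleukin-6, and Osmr is known from fibroblasts, endothelium and many tumour cells.

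Library totals ran from 16903598 to 19666598 counts in the Zelnorm libraries and from 18079258 to 19547390 in the NC libraries, and no batch is labelled. The floor of detection was set at 3 counts, or 0.152 to 0.178 CPM (counts scaled to a fixed library size, after TMM), and covers counting error only. Pigment cell markers summed to between 26600 and 28800 CPM in the Zelnorm libraries and between 24500 and 27800 CPM in the NC libraries, and all 8 were above the floor. The labels do not say whether the libraries stem from separate mice, and p-values then measure the spread between these samples, which may be technical. Across all genes, edgeR's quasi-likelihood test with Benjamini-Hochberg adjustment passed 4 of 12997 genes at an adjusted p under 0.05, all higher with Zelnorm.

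Promoter sequences are printed for 3 members: the cytokine Il6, the shared chain Il6st, and Osmr, the member with the smallest p in the comparison below. Each is the 250 bases before the annotated start in GRCm38.p6, from RefSeq, where 8 of the 10 members had an entry. Where transcription starts in these tumours was not measured. Il6 lies on the plus strand (chr5:30012864-30013113), Il6st on the plus strand (chr13:112463820-112464069) and Osmr on the minus strand (chr15:6874314-6874563), where the start used lies inside the outer bounds of the gene. Capitals mark matches to any of 4 motifs sought on both strands: a STAT core (TTCNNNGAA), an NF-kappaB site (GGANTTTCC), AP-1 (TGANTCA) and a TATA box (TATAAA).
Il6: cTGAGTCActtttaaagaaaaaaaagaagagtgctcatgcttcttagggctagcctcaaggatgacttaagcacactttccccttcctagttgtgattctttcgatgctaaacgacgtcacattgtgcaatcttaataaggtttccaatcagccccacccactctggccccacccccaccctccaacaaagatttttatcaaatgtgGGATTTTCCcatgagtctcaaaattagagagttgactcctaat
Il6st: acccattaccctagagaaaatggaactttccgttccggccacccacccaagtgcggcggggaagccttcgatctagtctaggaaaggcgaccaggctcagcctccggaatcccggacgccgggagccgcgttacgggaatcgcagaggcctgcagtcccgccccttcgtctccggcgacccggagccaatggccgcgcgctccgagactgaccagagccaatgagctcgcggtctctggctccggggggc
Osmr: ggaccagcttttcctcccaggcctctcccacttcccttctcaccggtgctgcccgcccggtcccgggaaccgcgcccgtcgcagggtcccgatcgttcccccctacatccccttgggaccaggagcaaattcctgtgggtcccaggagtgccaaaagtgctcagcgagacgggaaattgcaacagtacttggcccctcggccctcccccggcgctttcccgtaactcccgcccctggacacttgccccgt

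The Il6 window held 1 NF-kappaB match, beginning 43 bases before the start, and 1 AP-1 match, beginning 249 bases before it. Neither the Il6st nor the Osmr window held a match to any of the 4. Of 32851 windows of this length over all genes, 7.02% held the STAT core, 1.07% the NF-kappaB motif, 6.75% AP-1 and 12.4% the TATA box. A match describes letters only, and nothing measured here bears on binding.

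Ligand transcripts were scarce in every library, although Lif and Osm exceeded the floor of detection in each. All 5 receptor chains were well above that floor. Il6 itself, the founding cytokine of the family (chromosome 5, 30013114 to 30019975), had 1 read in MBZ_9, 3 in MBZ_11, 1 in MBZ_13 and 5 in MBZ_15, against 0 in NC_5, 5 in NC_6 and 2 in NC_10. The libraries overlapped, and only MBZ_15 and NC_6 exceeded the floor of 3. In sum, Il6 gave 10 reads over the 4 Zelnorm libraries and 7 over the 3 NC libraries.

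Il11, which encodes a cytokine of stromal and fibrotic responses (chromosome 7, 4772373 to 4782907), had 6, 5, 0 and 5 reads in MBZ_9, MBZ_11, MBZ_13 and MBZ_15, against 0, 1 and 3 reads in NC_5, NC_6 and NC_10. Above the floor stood 3 Zelnorm libraries and no NC library, while MBZ_13 had no read at all. Clcf1 (chromosome 19, 4214238 to 4223505) had 4, 3, 6 and 7 reads in the same Zelnorm libraries, against 2, 3 and 8 in the NC libraries, and the highest of all was NC_10. A second gene annotated in GENCODE vM21 overlaps Clcf1 on the same strand over 9149 bases. Whether the annotation used for counting held that gene is not given, so any effect on this small count is unknown.

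These 3 ligands had too few reads for the main test. When the filter on low counts was dropped, the edgeR log2 fold change was 0.13 for Il6 (95% interval -2.00 to 2.26, adjusted p = 0.972), 1.57 for Il11 (-0.76 to 3.89, adjusted p = 0.719) and 0.26 for Clcf1 (-1.19 to 1.71, adjusted p = 0.931). Changes of the size seen in the receptors were therefore not detectable for these ligands at this depth.

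**Figure D1:**
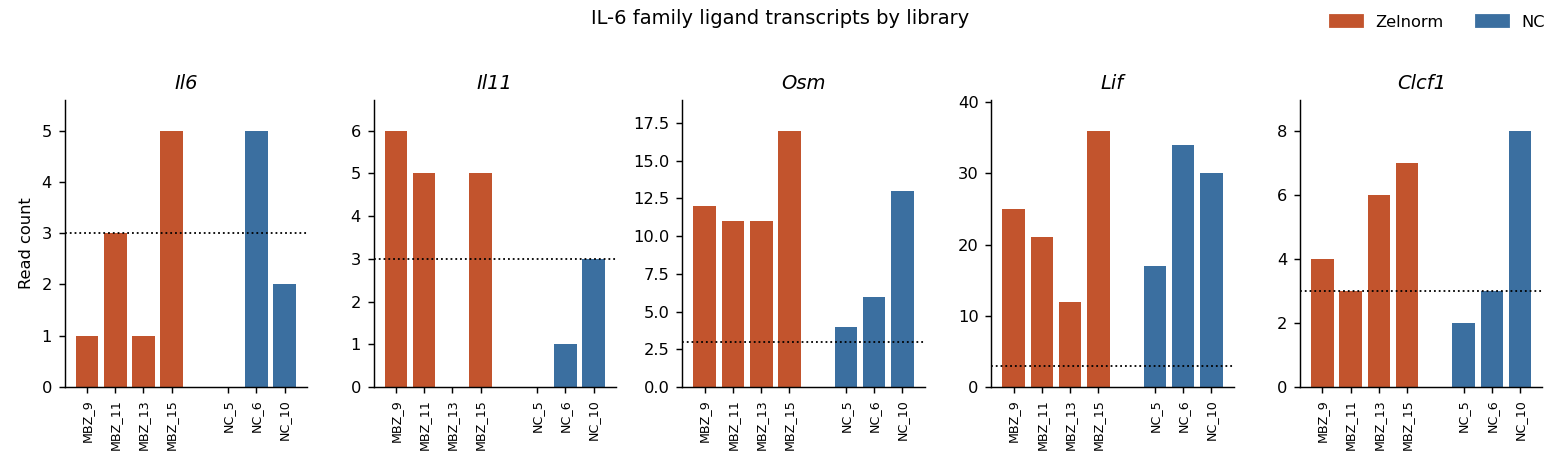
Read counts of the 5 ligands in each library (y axes, raw counts, 1 scale per panel), with Zelnorm libraries in orange and NC libraries in blue, and the floor of 3 counts as a dotted line. Il6, Il11 and Clcf1 stayed at 8 reads or fewer in every library, and Lif ran up to 36.

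Lif and Osm lie next to each other on chromosome 11, 16541 bases apart, and were the 2 ligands with enough reads to test. Osm, which encodes oncostatin M (4236785 to 4241026), had 12, 11, 11 and 17 reads in MBZ_9, MBZ_11, MBZ_13 and MBZ_15, against 4, 6 and 13 in NC_5, NC_6 and NC_10. NC_10 reached the Zelnorm range, and the other NC libraries lay below it. In CPM this was 0.706 ± 0.109 with Zelnorm (SD, n = 4) and 0.403 ± 0.228 in NC (SD, n = 3). The difference of 0.79 ± 0.45 (log2 fold change, SE) did not pass (edgeR adjusted p = 0.591). It was 1.34 without NC_10 and 0.50 without NC_5, and neither passed.

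Lif (4257568 to 4272514) encodes a cytokine named for its action on leukaemia cells and used to keep mouse embryonic stem cells undifferentiated. Its reads numbered 25, 21, 12 and 36 in MBZ_9, MBZ_11, MBZ_13 and MBZ_15, against 17, 34 and 30 in NC_5, NC_6 and NC_10. The groups overlapped, with the lowest level in MBZ_13 (0.675 CPM) and the highest in NC_6 (1.89 CPM), just above MBZ_15 (1.83 CPM). Its mean was 1.30 ± 0.48 CPM with Zelnorm (SD, n = 4) and 1.44 ± 0.49 in NC (SD, n = 3), and the log2 fold change of -0.15 ± 0.39 (SE, 95% interval -1.01 to 0.71) did not pass (edgeR adjusted p = 0.933). Its sign changed without MBZ_13 (0.06) or NC_6 (0.08).

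All 5 receptor chains had a higher mean with Zelnorm, and the differences ran from 0.13 for Il11ra1 to 0.77 for Il6ra on the log2 scale, with a median of 0.43 beside 0.0004 for all 12997 genes tested. None passed the edgeR threshold over all genes, which 0.0308% of genes did (smallest adjusted p = 0.152, Osmr). At an unadjusted p under 0.05, Osmr and Il6ra were higher, or 2 of the 7 members tested, where 6.94% of all genes were. On the lower side no member reached that level, against 3.38% of all genes. DESeq2 passed 1.72% of the 12000 genes to which it gave an adjusted p and 1 member, Osmr. limma voom passed no member, with Il6ra and Osmr at an unadjusted p under 0.05.

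Osmr, the oncostatin M receptor (chromosome 15, 6813568 to 6874968), had 14.9, 13.5, 13.1 and 14.8 CPM in MBZ_9, MBZ_11, MBZ_13 and MBZ_15, against 8.01, 10.2 and 10.7 CPM in NC_5, NC_6 and NC_10. Every Zelnorm library was above every NC library, which held for no other member tested and for 5.33% of all genes. The Zelnorm mean was 14.1 ± 0.901 CPM (SD, n = 4) and the NC mean 9.64 ± 1.42 CPM (SD, n = 3). The log2 fold change of 0.55 ± 0.12 (SE, 95% interval 0.27 to 0.82) had an edgeR adjusted p = 0.152, whereas DESeq2 called Osmr higher (0.54, adjusted p = 0.0252). With any single library left out the edgeR value stayed between 0.43 and 0.62 without passing.

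Il6ra, the ligand-binding chain for interleukin-6 (chromosome 3, 89869324 to 89913196), had 2.70, 4.56, 3.94 and 3.20 CPM in MBZ_9, MBZ_11, MBZ_13 and MBZ_15, against 1.52, 2.06 and 2.73 CPM in NC_5, NC_6 and NC_10. Only MBZ_9 and NC_10 touched, at nearly the same level. The means were 3.6 ± 0.816 CPM with Zelnorm (SD, n = 4) and 2.10 ± 0.608 CPM in NC (SD, n = 3). The difference of 0.77 ± 0.28 (log2 fold change, SE) did not pass (edgeR adjusted p = 0.364, DESeq2 adjusted p = 0.276). It rested on 28 to 77 reads a library and lost its unadjusted p under 0.05 without MBZ_11 (0.63) or without NC_5 (0.58). An antisense gene overlaps Il6ra over 281 bases, and the strand setting of the counting is not given.

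Lifr, the receptor for leukaemia inhibitory factor (chromosome 15, 7090610 to 7197489), lies 215641 bases from Osmr. It had 6.84, 7.16, 10.7 and 8.48 CPM in MBZ_9, MBZ_11, MBZ_13 and MBZ_15, against 5.69, 5.23 and 7.58 CPM in NC_5, NC_6 and NC_10. NC_10 lay above the lowest 2 Zelnorm libraries. The log2 fold change was 0.43 ± 0.20 (SE, 95% interval -0.01 to 0.86, edgeR adjusted p = 0.494), and 0.28 without MBZ_13, the library with the highest level.

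Il6st, the gp130 chain (chromosome 13, 112464070 to 112506860), had the most reads of all members, 1476 to 2015 a library. Its levels were 91.7, 99.7, 91.5 and 102 CPM in MBZ_9, MBZ_11, MBZ_13 and MBZ_15, against 81.7, 82.2 and 95.7 CPM in NC_5, NC_6 and NC_10. NC_10 fell inside the Zelnorm range, and the other NC libraries lay below it. The difference was 0.15 ± 0.07 (log2 fold change, SE, 95% interval -0.01 to 0.32, edgeR adjusted p = 0.513). It was 0.23 without NC_10 and 0.04 without NC_5, MBZ_11 and MBZ_15.

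Il11ra1, the interleukin-11 receptor alpha chain (chromosome 4, 41760443 to 41769473), was the steadiest member with 51.5, 58.2, 52.7 and 48.3 CPM in MBZ_9, MBZ_11, MBZ_13 and MBZ_15, against 50.3, 47.0 and 47.0 CPM in NC_5, NC_6 and NC_10. The groups overlapped through NC_5 and MBZ_15. Its log2 fold change of 0.13 ± 0.07 (SE) had a 95% interval of -0.03 to 0.29 (edgeR adjusted p = 0.58), and it was 0.08 without MBZ_11. The mouse genome holds near-identical copies, of which Il11ra2 had 2 reads in MBZ_13 and 0 elsewhere, so part of this count is uncertain.

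**Figure D2:**
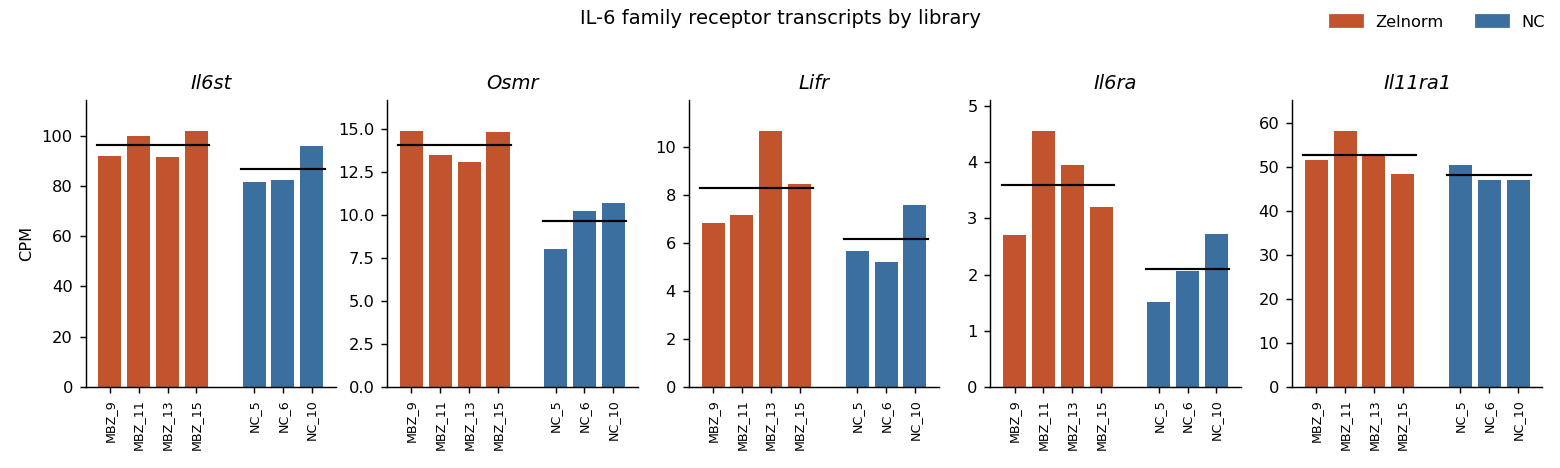
CPM of the 5 receptor chains in each library (y axes, 1 scale per panel from 0), Zelnorm in orange on the left of each panel and NC in blue on the right, with group means as black lines. Osmr is separated between groups (13.1 to 14.9 CPM with Zelnorm, 8.01 to 10.7 CPM in NC), and in the other panels at least 1 NC library reaches the lowest Zelnorm library.

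NC_10 was the highest of the NC libraries for 5 of the 7 members tested (Osm, Il6ra, Il6st, Lifr and Osmr). When NC_10 was left out, these 5 were the members at an unadjusted edgeR p under 0.05, still with none past the adjusted threshold (smallest adjusted p = 0.0645, Osmr). Without NC_5, Osmr alone was at an unadjusted p under 0.05. The same held without NC_5, MBZ_11 and MBZ_15, the 3 libraries with the most skeletal muscle transcripts, where its value was 0.42, that of Il6ra 0.46 and that of Osm 0.38. That last choice was made after seeing the data.

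Transcripts of stroma and myeloid cells also differed between libraries. The 8 fibroblast markers summed to 1260, 1540, 1570 and 2470 CPM in MBZ_9, MBZ_11, MBZ_13 and MBZ_15. In NC_5, NC_6 and NC_10 they summed to 707, 801 and 1860 CPM, and all 8 had a higher mean with Zelnorm. For 10 macrophage markers, all also higher, the sums were 418, 612, 428 and 437 CPM in the same Zelnorm libraries. They were 244, 221 and 456 CPM in the same NC libraries, so NC_10 again resembled the Zelnorm libraries. MBZ_9, with the highest Osmr (14.9 CPM), had the lowest of both sums among the Zelnorm libraries, below NC_10. Pan-leukocyte sums were 536 to 746 CPM with Zelnorm and 491 to 564 CPM in NC (10 of 10 markers higher). Mast cell sums were 22.3 to 34.0 CPM with Zelnorm and 20.8 to 23.5 CPM in NC (5 of 6 higher), T cell sums 14.5 to 25.9 and 9.30 to 14.0 CPM (7 of 7 higher), and adipocyte sums 30.5 to 160 and 31.1 to 91.4 CPM (6 of 6 higher).

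Endothelial markers showed no such shift, with sums of 214 to 254 CPM with Zelnorm and 189 to 306 CPM in NC and 4 of 8 higher. Skeletal muscle sums ran from 6.02 to 304 CPM with Zelnorm and from 5.91 to 38.2 CPM in NC (8 of 8 higher). Neutrophil markers were near absent, at 3.43 to 8.88 CPM with Zelnorm and 2.06 to 7.33 CPM in NC, with Ly6g, Ngp and Camp at or under the floor in every library. Keratinocyte sums were 1.09 to 18.5 CPM with Zelnorm and 2.45 to 2.88 CPM in NC. The part of these cell types in the levels of Osmr, Il6ra, Lifr or Osm was not tested, and in bulk tumour RNA more cells of a type and more RNA per cell cannot be told apart.

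Dividing each receptor chain by Il6st within the library removed the scaling between libraries and tested whether a chain differed relative to gp130. The log2 ratio of Osmr to Il6st was -2.61, -2.88, -2.79 and -2.78 in MBZ_9, MBZ_11, MBZ_13 and MBZ_15, against -3.33, -2.99 and -3.15 in NC_5, NC_6 and NC_10. The groups did not overlap, and the share of all genes whose ratio to Il6st separates the groups was not computed. The difference of 0.39 gave p = 0.0286 in a 2-sided exact permutation test, the smallest p that 35 arrangements of 4 and 3 libraries allow, and 0.114 after Benjamini-Hochberg adjustment over the 4 ratios compared.

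For Il6ra the log2 ratio to Il6st averaged -4.73 ± 0.31 with Zelnorm (SD, n = 4) and -5.33 ± 0.30 in NC (SD, n = 3). The difference was 0.60 (exact permutation p = 0.0571, adjusted 0.114). These ratios did not overlap between groups, whereas the CPM of Il6ra did (2.70 in MBZ_9, 2.73 in NC_10). The log2 ratio of Lifr to Il6st averaged -3.54 ± 0.32 with Zelnorm and -3.80 ± 0.15 in NC. That difference was 0.26 (exact permutation p = 0.286, adjusted 0.381), and 0.11 without MBZ_13. The ratio of Il11ra1 to Il6st was -0.87 ± 0.14 with Zelnorm and -0.84 ± 0.17 in NC, a difference of -0.03 (exact permutation p = 0.771). With single libraries left out, the difference ran from 0.31 to 0.48 for Osmr, from 0.44 to 0.72 for Il6ra, and from -0.12 to 0.04 for Il11ra1, where the sign changed. The Il6ra difference was 0.40 without the 3 muscle-rich libraries. After adjustment no ratio passed.

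**Figure D3:**
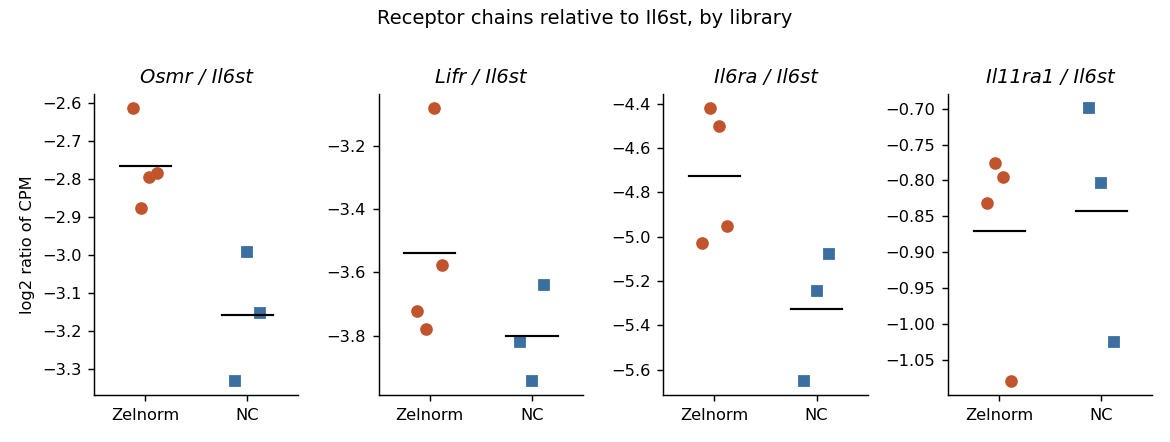
Log2 ratio of the CPM of each receptor chain to that of Il6st in each library (y axes, 1 scale per panel), Zelnorm as orange circles and NC as blue squares, with group means as lines. For Osmr the 4 Zelnorm libraries lie between -2.88 and -2.61 and the 3 NC libraries between -3.33 and -2.99. For Il11ra1 the groups lie over each other.

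Levels were compared between members per length, as CPM per kilobase of merged exons. Il11ra1 stood highest at 20.2 ± 1.57 (mean and SD over all 7 libraries), followed by Il6st at 8.39 ± 0.726 and Osmr at 2.22 ± 0.471, and the ranges of these 3 over libraries did not overlap with each other or with the next gene. Lifr followed at 0.712 ± 0.177, then Il6ra at 0.342 ± 0.121, Lif at 0.335 ± 0.111 and Osm at 0.253 ± 0.098. Clcf1 at 0.138 ± 0.0606, Il11 at 0.0757 ± 0.069 and Il6 at 0.0544 ± 0.0438 came last. From Lifr downward, each gene overlapped in range with the next, so the order of neighbours did not exceed the spread between libraries. Genes further apart in the order could be separate. Lifr (lowest 0.504) lay above Lif (highest 0.467) and every gene below it. The order was the same with the length of the longest transcript in place of merged exons.

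**Figure D4:**
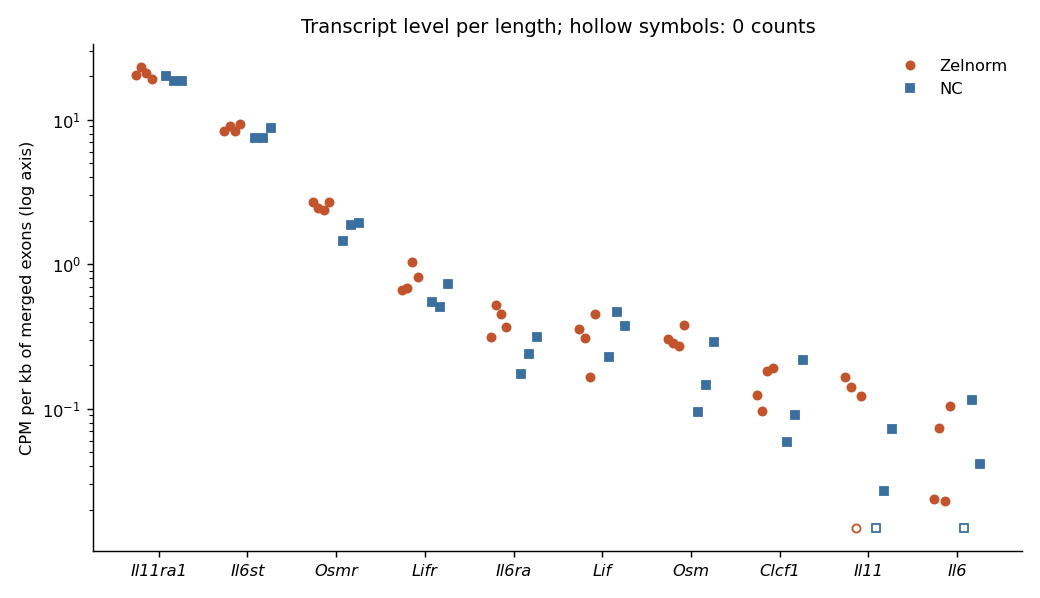
Level per length of the 10 members (y axis, CPM per kilobase of merged exons, log axis) in each library, ordered by mean, with Zelnorm as orange circles and NC as blue squares. Hollow symbols at the bottom are libraries with 0 reads. Il11ra1, Il6st and Osmr occupy separate bands, and the ligands sit at the low end together with Il6ra.

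Further family members did not split cleanly into scarce ligands and present receptors. Of 7 other ligands and ligand partners, 4 could be tested and 0 passed. Il31 and Ctf2 had no reads, and Il27 had 6 reads over the Zelnorm libraries and 4 over the NC libraries. Of 4 other receptors, Cntfr and Il27ra could be tested and 0 passed. Il11ra2 and Il31ra were near absent, with 2 reads each over the Zelnorm libraries and 0 and 4 over the NC libraries. Il27ra had 77 reads over the Zelnorm libraries and 50 over the NC libraries, beside 88 and 58 for the ligand Ctf1. Cntfr, the alpha chain for ciliary neurotrophic factor, was abundant and level at 87.9 ± 7.98 CPM with Zelnorm and 86.1 ± 5.20 CPM in NC (log2 fold change 0.03, 95% interval -0.14 to 0.20). The median of the ligands was -0.12, and it ran from -0.30 (without MBZ_15) to 0.02 (without MBZ_13) with single libraries left out. That of the 2 receptors tested was 0.15, and ran from -0.01 (without NC_5) to 0.40 (without NC_6), so neither median kept its sign.

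Downstream of the receptors, kinases, STATs and adaptors were measured well, and 0 of 11 passed over all genes, with 3 on the higher side and 0 on the lower side at p under 0.05 before adjustment, beside 6.94% and 3.38% of all genes. The median log2 fold change was 0.05, and up to 0.08 (without NC_6) with single libraries left out. Stat3, the main transducer of gp130, had 298, 312, 269 and 308 CPM in MBZ_9, MBZ_11, MBZ_13 and MBZ_15, against 246, 279 and 220 CPM in NC_5, NC_6 and NC_10. MBZ_13 and NC_6 crossed, and the log2 fold change was 0.26 ± 0.08 (SE, edgeR adjusted p = 0.308). Jak2 was at 0.19 ± 0.08 (SE, adjusted p = 0.44), and Jak1, the kinase on which gp130 mainly relies, was at 0.09 ± 0.06 (SE, adjusted p = 0.652), with 0.05 without NC_5 and 0.15 without NC_6.

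Among 9 negative regulators 0 passed by edgeR, and 2 were higher at an unadjusted p under 0.05, a level that 6.94% of all genes reached on that side. Their median was 0.05, and with single libraries left out it ran from 0 (without NC_6) to 0.14 (without NC_5). Socs3, the inhibitor that binds gp130, had 27.8, 28.3, 25.1 and 34.0 CPM in MBZ_9, MBZ_11, MBZ_13 and MBZ_15, against 24.0, 25.9 and 21.1 CPM in NC_5, NC_6 and NC_10 (log2 fold change 0.29 ± 0.11, SE, adjusted p = 0.411), and the value was 0.19 without MBZ_15. Only MBZ_13 fell below an NC library. Socs1, an inhibitor of interferon receptor signalling, differed more, at 6.11 ± 1.78 CPM with Zelnorm and 2.96 ± 0.987 CPM in NC (1.05 ± 0.29, SE, edgeR adjusted p = 0.234). DESeq2 called Socs1 higher (adjusted p = 0.0364). The sheddases Adam10 and Adam17, which can release soluble interleukin-6 receptor, were higher by 0.15 and 0.06 and did not pass (edgeR adjusted p = 0.539 and 0.81).

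Of 18 genes listed as STAT3 targets, 15 had a positive log2 fold change and 3 a negative one, where 50.2% of all genes were positive. Their median was 0.19, and 0.10 without the 3 libraries richest in muscle transcripts. By edgeR 0 passed. Before adjustment, 6 reached p under 0.05 on the higher side and 2 (Hif1a and Vegfa) on the lower side, beside 6.94% and 3.38% of all genes. Cebpd, a transcription factor gene of the acute phase, had 7.13, 7.40, 6.19 and 10.5 CPM in MBZ_9, MBZ_11, MBZ_13 and MBZ_15, against 5.52, 3.56 and 4.65 CPM in NC_5, NC_6 and NC_10 (log2 fold change 0.77 ± 0.22, SE, adjusted p = 0.245). Its groups did not overlap. Every Zelnorm library was above every NC library for 5 of the 46 genes tested over all 6 lists, Mcl1 among them, and for 5.33% of all genes. Cebpb, its relative, stood at 0.56 ± 0.18 (adjusted p = 0.303), Bcl3, a partner of NF-kappaB, at 0.66 ± 0.26 (adjusted p = 0.403) and Mcl1, a survival factor, at 0.17 ± 0.06 (adjusted p = 0.394). Bcl3 was at 0.16 and Cebpb at 0.24 without the 3 muscle-rich libraries, and Bcl3 at 0.43 without NC_5 alone. Over all 6 lists, 46 of 51 genes were tested, 0 passed (1, Socs1, by DESeq2 and 0 by limma voom), and before adjustment 11 (23.9%) reached p under 0.05 on the higher side and 3 on the lower side, where 6.94% and 3.38% of all genes did. Many of these genes answer to other cytokines too. Members and lists were chosen with earlier results of these data known, so shares above those of all genes are not an independent test.

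**Figure D5:**
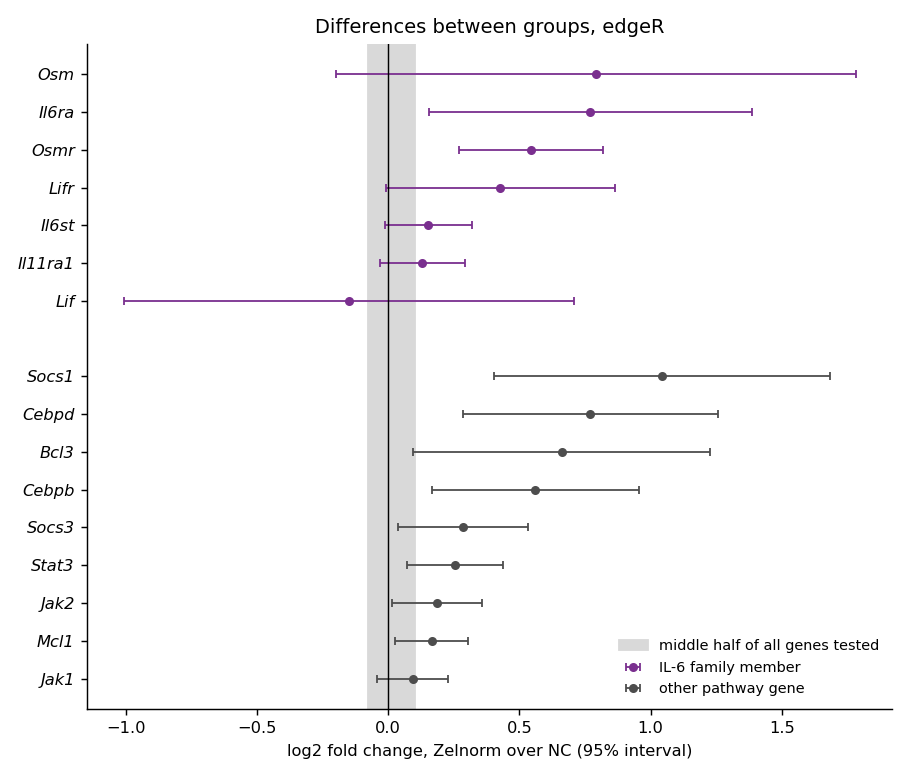
Log2 fold change of Zelnorm over NC with 95% intervals (x axis) for the 7 members tested (purple) and other pathway genes described (grey), by edgeR. The shaded band runs between the quartiles of all 12997 genes tested, from -0.08 to 0.10. Among members, the intervals of Il6ra and Osmr lie above 0, and those of Osm and Lif are the widest.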

How the data were processed

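Per the labels' protocols, tumour RNA was extracted with TRIzol and made into strand-keeping TruSeq mRNA libraries. The deposited table holds raw counts of reads by gene for 7 libraries. The submitters' processing notes name HISAT2, HTSeq, Trimmomatic, Cufflinks and DESeq as tools and GRCm38 and GRCh38 as builds. Their versions, filters and strand setting are not given in the sources used. Columns carry the group but none of the titles' replicate numbers, so each was assigned to its group only. Chi-square per degree of freedom between pairs of libraries was at least 6.53, more than sampling noise gives.

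Genes kept by filterByExpr were scaled by TMM and compared with edgeR 4.0.16 (quasi-likelihood test, Benjamini-Hochberg over all genes, threshold 0.05) in R 4.3.3, and the SE of a log2 fold change came from its F statistic. CPM used the whole library total times the TMM factor. Log2 ratios to Il6st used a prior count of 2. Alternatives were RLE and upper quartile scaling, 2 other filters, DESeq2 1.42.0, limma 3.58.1 voom, a robust fit, a prior count of 0.5 and leaving out libraries. Tests were tried on simulated data. Loci came from RefSeq (GRCm38.p6) by gene identifier and exon lengths from GENCODE vM21.

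All 10 members, Stat3, Socs3, Jak1 and up to 4 further genes a list at the smallest unadjusted p under 0.05 were named. Some genes this rule names are not reported here. Other genes named were chosen after their values were seen. Members and lists were chosen with earlier results of these data known. Figures used matplotlib 3.10.9.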

Additional observations from a re-analysis of the deposited data

Results flagged for a closer look

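Among 36 measures examined in the 4 Zelnorm libraries (named genes, ratios to Il6st and marker sums), 2 had a library far from the other 3 by Dixon's test, which by chance marks about 1 in 20 groups. Both concerned MBZ_11. Its macrophage markers summed to 612 CPM, against 418 to 437 CPM in the other Zelnorm libraries. Its keratinocyte markers summed to 18.5 CPM, against 1.09 to 3.32 CPM in the others. MBZ_11 also had the highest Il6ra of all libraries (4.56 CPM), and without it the Il6ra log2 fold change was 0.63, against 0.77 with all libraries. Osmr was 0.56 without it. No member's level was itself marked.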

How the results depend on the processing

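No paired analysis was possible because the columns carry no replicate number. The count of genes past the threshold, 4, was 34 with no filter on low counts, 206 by DESeq2, and 21 in a robust fit. It was 0 without the 3 muscle-rich libraries (NC_5, MBZ_11 and MBZ_15, chosen after seeing the data), with 547 at an unadjusted p under 0.05. Leaving out single libraries gave 0 (without NC_5, 977 unadjusted) to 161 (without NC_10), with 21 without MBZ_15; the cause was not tested. Members past it stayed at 0 except by DESeq2 (1, Osmr), and pathway genes at 0 except by DESeq2 (1, Socs1). Pathway genes numbered 0 to 1 with single libraries left out (Il4ra, without NC_10). Members at an unadjusted p under 0.05, 2, numbered 1 to 5 with single libraries left out and 1 without the muscle-rich libraries. Osmr reached that level in each of the 15 alternatives. Of the members tested, Lif changed sign in 2 alternatives (0.06 without MBZ_13, 0.08 without NC_6), without passing in any. The prior count changed no call on a ratio. Ligand counts of 0 to 36 limit the precision of the ligand results.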
